A study of Mus musculus with 8 samples.

Results

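The clustered protocadherins are 57 protein-coding genes, taken by symbol as Pcdha, Pcdhb or Pcdhg on mouse chromosome 18, of 21887 protein-coding genes with a position. They stand in a 1 Mb span (GRCm38, 36.9 to 37.9 Mb) in which peaks of ATAC-seq libraries were counted. ATAC-seq uses a transposase that cuts open chromatin, so a peak marks accessible DNA. There were 14 Pcdha, 22 Pcdhb and 21 Pcdhg genes. The 4 libraries came from C57BL/6 DN3 thymocytes, T-cell precursors at the stage of pre-T-cell receptor selection. The 2 mutant libraries carried homozygous mutations of GATA sites 1 and 2 in N-Me, the Notch-Myc enhancer, and the 2 wild-type libraries had an intact N-Me. N-Me lies on another chromosome, the one that carries Myc. The 4 leukaemia samples of the series were not analysed here. No ages and no separate animals are given in the sources used here, so the spread between replicates may be technical.

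Clustered protocadherins are cell-surface cadherins best known from neurons, where each cell displays its own combination and cells with matching combinations recognise each other. In Pcdha and Pcdhg every gene has its own variable exon, which encodes the extracellular and membrane-spanning part, with a promoter of its own. This exon is spliced to constant exons shared by the whole cluster, which encode a common cytoplasmic end. Pcdhb genes have no shared constant exons. In neurons, promoters are chosen with the help of CTCF, cohesin and distant enhancers, among them HS5-1 between Pcdha and Pcdhb, HS7 among the Pcdha constant exons and a group of elements beyond the Pcdhg end. The last variable exons of Pcdha and Pcdhg, called C-type, follow other rules than the alternate ones.

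Each library had its own list of broad peaks, with 121022 and 119023 peaks in mutant and 169255 and 156372 in wild type on the main chromosomes. Lists hold no read counts, so depth is unknown, and a missing peak says only that the caller found none in that library. The lists also differed in build, with a shortest peak of 73 and 87 bp in mutant and 64 and 65 bp in wild type, and smallest gaps of 293 and 349 bp in mutant and 257 and 261 bp in wild type. Every list had peaks no more than 1 kb from a gene end for all 14 T-cell precursor markers, Cd3e, Ptcra and Rag1 among them. So had 8 of 10 neuron, 6 of 8 glia, 6 of 9 thymic stroma, 3 of 5 B cell, 3 of 5 myeloid and 2 of 5 erythroid markers, beside 67.1% of all coding genes. Stmn2 and Gria1 of neurons, Gfap and Aqp4 of glia, Krt5, Ms4a1, Gata1 and Hba-a1 had no such peak in any library. What other cell types contributed to the peaks below was not tested.

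Accessibility in the span was unequal between the 3 clusters. Merging the 4 lists gave 74 regions in the span, of 180318 in the genome. Of these, 36 (48.6%) were called in all 4 libraries, against 56.7% of all regions. Peaks covered 8.32% and 8.11% of the Pcdhg cluster in mutant, and 9.18% and 8.41% in wild type. They covered 0.270% and 0.0727% of the Pcdha cluster in mutant, and 0.962% and 0.638% in wild type. For the Pcdhb cluster the covered share was 0.461% and 0.303% in mutant, and 1.02% and 0.525% in wild type. In each of the 4 libraries the Pcdhg cluster was thus the most covered of the 3. The longest stretch without a peak in any library ran for 119 kb from Pcdhb22 to Slc25a2. The next, of 112 kb, held the starts of 7 genes, Pcdhb6 to Pcdhb12, and a 91.9 kb stretch held those of Pcdha10, Pcdha11 and Pcdha12.

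**Figure D1:**
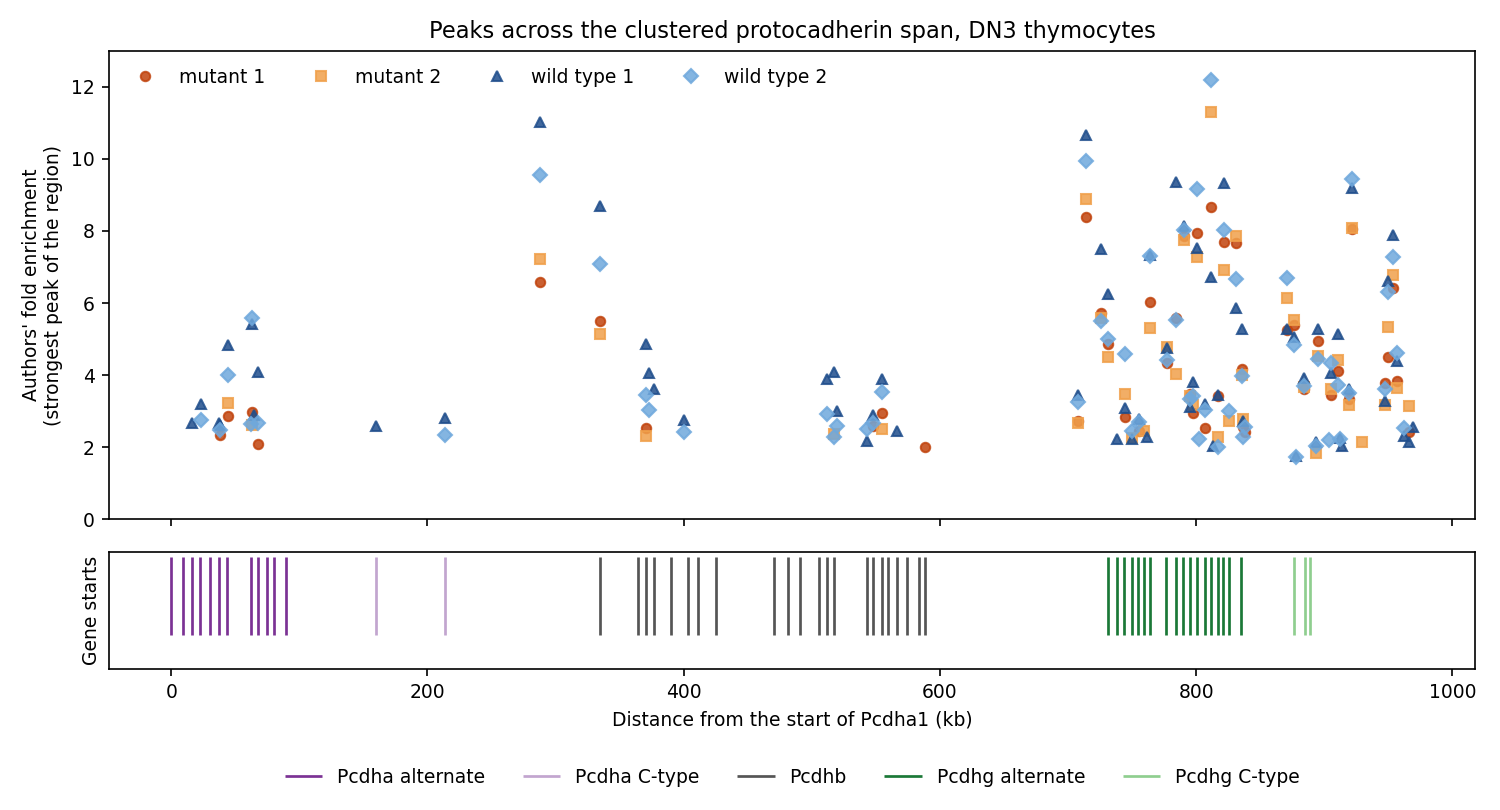
Strongest peak of each region (authors' fold enrichment, y axis) against distance from the start of Pcdha1 in kb (x axis), with 1 marker for each library that called the region, and below it the 57 gene starts by subfamily. Markers are sparse over Pcdha and Pcdhb, with 1 high region between them, and dense over Pcdhg and beyond it.

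A gene start was counted as called when a peak lay within 1 kb of it. The start is the 5′ end of the variable exon, taken as the lower annotated end, since Pcdha and Pcdhg genes share their upper end and the 3 clusters are known to be transcribed in the same direction. Of the 57 starts, 19 (33.3%) were called in all 4 libraries, and 19 were called in none. Of 17492 coding genes on other chromosomes, 65.3% were called in all 4 libraries and 29.9% in none. Single libraries called 25 and 23 of the 57 starts in mutant, and 35 and 31 in wild type, beside 65.9% and 66.3% of the other starts in mutant, and 69.3% and 68.5% in wild type. Of the 21 Pcdhg starts 14 (66.7%) were called in all 4 libraries, a share near that of all genes. For Pcdha it was 2 of 14 (14.3%) and for Pcdhb 3 of 22 (13.6%). With mutant replicate 2 left out, the regions at Pcdha and Pcdhb starts called in every remaining library numbered 8 in place of 5.

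**Figure D2:**
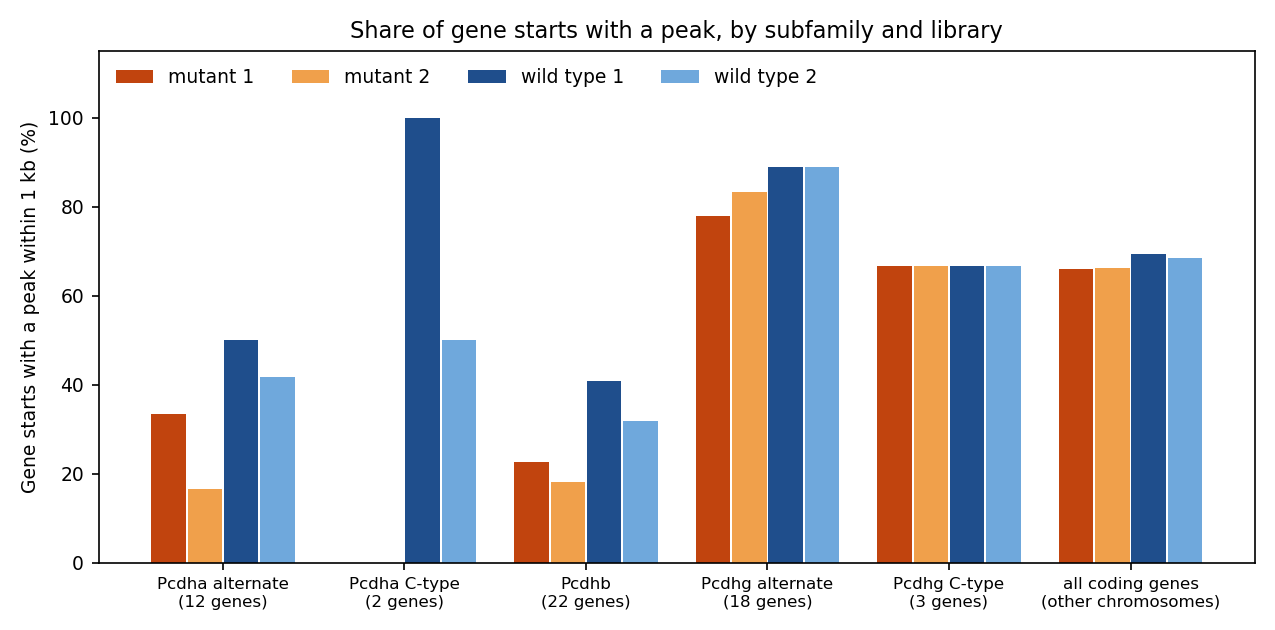
Share of gene starts with a peak within 1 kb (y axis, percent) in each subfamily and, at the right, over all coding genes of other chromosomes, with 1 bar per library. Pcdha and Pcdhb bars lie below the bars of all coding genes except those of the 2 Pcdha C-type genes in wild type 1, and the alternate Pcdhg bars lie above them.

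In Pcdha, 4 and 2 of 14 starts were called in mutant, and 8 and 6 in wild type. Only Pcdha7 and Pcdha8, neighbouring alternate genes, were called in all 4. Throughout, fold is the authors' enrichment of a peak over the local background of its own library, and q is the caller's adjusted p. Pcdha8 had a fold of 2.99 and 2.60 in mutant, and 5.43 and 5.58 in wild type. Pcdha7 had 2.88 and 3.24 in mutant, and 4.82 and 3.998 in wild type. At both genes the wild-type folds were above the mutant ones with no overlap. This order is common, since at 74.1% of the 11424 starts called in all 4 libraries elsewhere both wild-type folds exceeded both mutant folds.

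Other Pcdha starts had weaker calls. Pcdha9 had a fold of 2.08 in mutant 1 and no peak in mutant 2, and 4.08 and 2.67 in wild type. Pcdha6 had 2.35 in mutant 1 and none in mutant 2, and 2.68 and 2.48 in wild type. The 2.68 of wild type 1 belonged to a peak at another place than those of mutant 1 and wild type 2. Where those lay, wild type 1 had a second peak, with a fold of 2.62. Pcdha4 was called in neither mutant list and at 3.21 and 2.77 in wild type, and Pcdha3 was called in wild type 1 alone, at 2.68. No library had a peak at Pcdha1, Pcdha2, Pcdha5, Pcdha10, Pcdha11 or Pcdha12. Of the C-type genes, Pcdhac2 had no peak in mutant and folds of 2.82 and 2.34 in wild type, and Pcdhac1 had 1 peak, in wild type 1 (2.58).

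The constant part of Pcdha, from 1 kb after the start of Pcdhac2 to the end of the cluster, held no peak in any library. HS7 lies in this part, and exons could not be told from introns there because the gene table gives no exons. In the 76.1 kb interval between Pcdha and Pcdhb, where HS5-1 lies, 1 region stood away from gene starts. This region (chromosome 18, 37218054 to 37218490) was 437 bp wide and centred 29.4 kb after the Pcdha end, outside annotated genes. Its fold was 6.59 and 7.23 in mutant, and 11.01 and 9.55 in wild type, with −log10 q of 34.0 and 33.3 in mutant and 65.4 and 45.6 in wild type. It ranked above 91.8% and 93.7% of peaks in the mutant lists, and above 98.6% and 97.7% in the wild-type lists. The only other peak in the interval's length belonged to the start of Pcdhb1 at its far edge. The region was called in every library under each alternative processing tried, at fold 4 or more included. Whether it is HS5-1 itself was not tested, as no coordinates of that element were used here.

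In Pcdhb, 5 and 4 of 22 starts were called in mutant, and 9 and 7 in wild type. Pcdhb1, the first gene of the cluster and set apart from the others, had the strongest peak. Its fold was 5.49 and 5.15 in mutant, and 8.69 and 7.10 in wild type. Pcdhb3 had 2.53 and 2.32 in mutant, and 4.86 and 3.44 in wild type. Pcdhb17 had 2.94 and 2.50 in mutant, and 3.89 and 3.55 in wild type. At these 3 genes, the only Pcdhb genes called in all 4 libraries, wild-type folds lay above mutant folds without overlap. The same order held at 74.1% of the starts called in all 4 libraries elsewhere, so it is not particular to Pcdhb.

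Most other Pcdhb genes had no peak at their start, 12 of 22 in no library. Pcdhb13 and Pcdhb15 were called only in wild type, with folds of 3.89 and 2.91 at Pcdhb13 and of 2.18 and 2.51 at Pcdhb15. Pcdhb14 had no peak in mutant 1 and a fold of 2.36 in mutant 2, against 4.08 and 2.27 in wild type. Pcdhb16 had 2.58 in mutant 1 and none in mutant 2, and 2.90 and 2.68 in wild type. Pcdhb4 (3.61) and Pcdhb19 (2.45) were called in wild type 1 alone, and Pcdhb22 (2.01) in mutant 1 alone. These calls cover single lists, and none of the 3 reached fold 4.

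**Figure D3:**
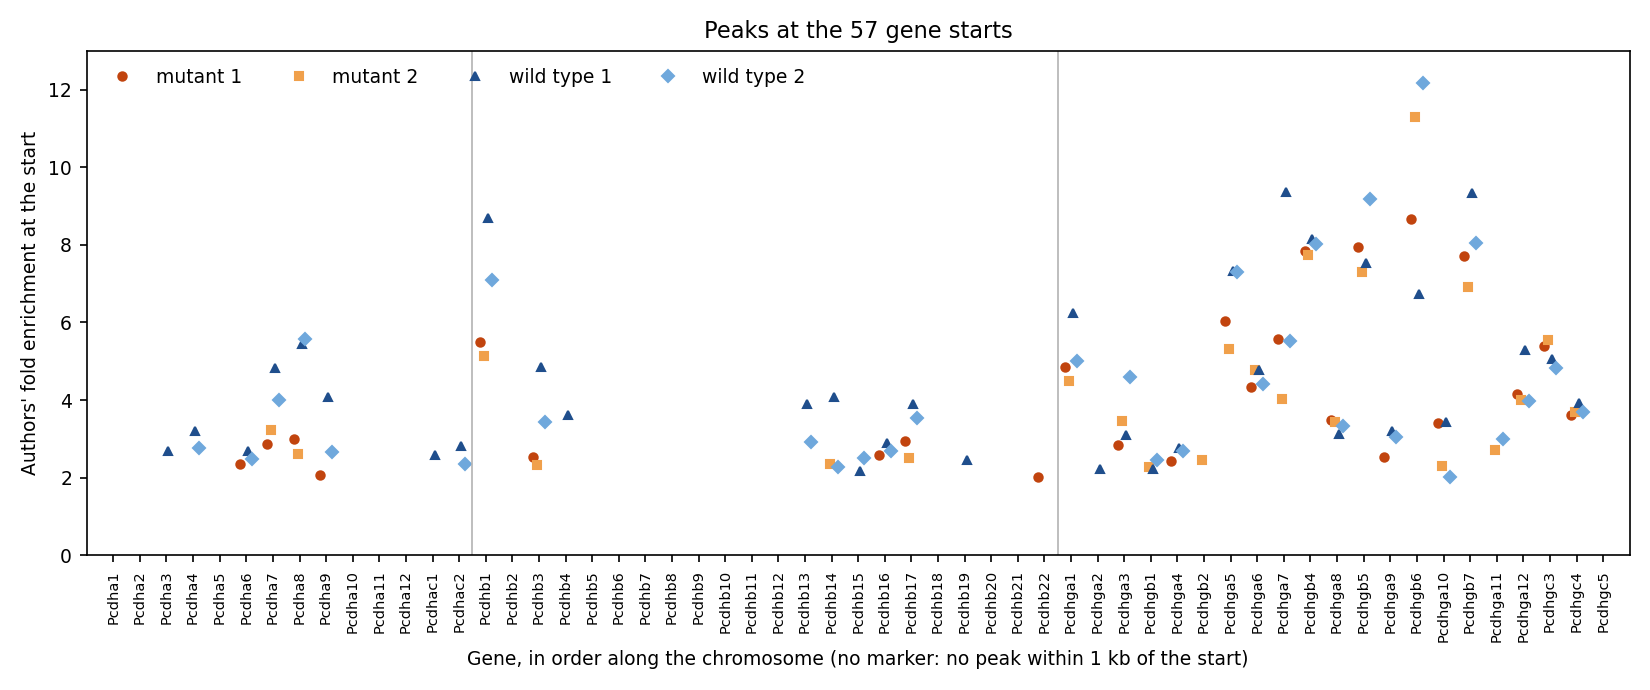
Authors' fold enrichment of the strongest peak within 1 kb of each of the 57 starts (y axis), with genes in chromosome order (x axis) and 1 marker per library that called the start. Vertical lines separate Pcdha, Pcdhb and Pcdhg. Pcdhb1 stands alone among Pcdhb genes, and the highest marker is that of Pcdhgb6 in wild type 2, at a fold of 12.2.

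Pcdhg starts were called at 16 and 17 of 21 genes in mutant, and at 18 and 18 in wild type. Every one of the 18 alternate Pcdhg genes was called in at least 1 library. The alternate genes come in 2 kinds, Pcdhga and Pcdhgb, which differ in protein sequence and are interleaved along the cluster. With uncalled starts ranked lowest, the median fold of the 6 Pcdhgb starts was 7.78 and 7.10 in mutant, and 7.13 and 8.03 in wild type. That of the 12 Pcdhga starts was 3.45 and 3.45 in mutant, and 3.32 and 3.66 in wild type. The Pcdhgb median was the higher one in all 4 libraries. This split was looked at after the values had been seen.

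Pcdhgb4 to Pcdhgb7 had the high values among the 6 genes. Pcdhgb6, with the highest fold of any member in wild type 2, had 8.66 and 11.3 in mutant, and 6.72 and 12.2 in wild type. Its replicates differed more than its genotypes, and the groups overlapped. Pcdhgb7 had 7.70 and 6.91 in mutant, and 9.32 and 8.03 in wild type, without overlap. Pcdhgb5 had 7.94 and 7.29 in mutant, and 7.54 and 9.17 in wild type, which overlapped. Pcdhgb4 had 7.85 and 7.74 in mutant, and 8.14 and 8.03 in wild type, close together but not overlapping. These peaks ranked above 86.6% to 99.8% of the peaks of their own lists. The first 2 Pcdhgb genes were unlike them. Pcdhgb1 had no peak in mutant 1 and folds of 2.27 in mutant 2, and 2.22 and 2.46 in wild type, and Pcdhgb2 had 1 peak, in mutant 2 (2.46).

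A transcribed pseudogene of the same kind, Pcdhgb8, is not among the 57 genes. The region across its start (37761311 to 37761993) was called in all 4 libraries, with a fold of 7.67 and 7.86 in mutant, and 5.85 and 6.66 in wild type. Here the mutant folds were the higher ones, without overlap. Neighbouring protocadherin exons are alike in sequence, and how reads that map to several places were handled is not given in the sources used here.

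Among Pcdhga genes, Pcdhga5 and Pcdhga7 had the highest folds in 3 of 4 libraries, and in mutant 2 Pcdhga7 was below Pcdhga6 and Pcdhga1. Pcdhga5 had a fold of 6.04 and 5.32 in mutant, and 7.33 and 7.29 in wild type, without overlap. Pcdhga7 had 5.58 and 4.02 in mutant, and 9.37 and 5.52 in wild type, which overlapped. Pcdhga1, the first gene of the cluster, had 4.86 and 4.49 in mutant, and 6.24 and 5.004 in wild type. Pcdhga6 had 4.34 and 4.77 in mutant, and 4.77 and 4.42 in wild type, and Pcdhga12 had 4.16 and 4.01 in mutant, and 5.29 and 3.98 in wild type.

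The other Pcdhga starts were weaker or called in part of the libraries. Pcdhga8 had a fold of 3.49 and 3.43 in mutant, and 3.13 and 3.34 in wild type, the only alternate start of the 12 called in all 4 libraries at which both mutant folds were above both wild-type folds. Pcdhga3 had 2.84 and 3.47 in mutant, and 3.101 and 4.59 in wild type. Pcdhga10 had 3.41 and 2.297 in mutant, and 3.44 and 2.02 in wild type, with replicate 1 the higher one in both genotypes. Pcdhga4 and Pcdhga9 were called in mutant 1 and both wild-type libraries at folds of 2.44 to 3.21. Pcdhga11 was called in replicate 2 of each genotype (2.73 in mutant and 2.99 in wild type), and Pcdhga2 in wild type 1 alone (2.22).

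Of the Pcdhg C-type genes, Pcdhgc3 had the widest start peak of the 57 genes but for Pcdhgc4 in mutant. It was 1677 and 1741 bp wide in mutant, and 1769 and 1824 bp in wild type. Its fold was 5.39 and 5.54 in mutant, and 5.06 and 4.82 in wild type, with both mutant folds above the wild-type ones. Pcdhgc4 had a fold of 3.63 and 3.68 in mutant, and 3.92 and 3.70 in wild type, with peaks of 2101 and 1879 bp in mutant. In wild type 2 peaks each lay at the start of Pcdhgc4, the stronger one 1422 and 1497 bp wide, in lists with shorter smallest gaps. Pcdhgc5 had no peak within 1 kb of its start in any library.

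The constant part of Pcdhg was accessible, unlike that of Pcdha. The 22.3 kb from the start of Pcdhgc5 to the cluster's end held 5 regions, 3 of them called in all 4 libraries. The strongest (37824549 to 37826064, 1516 bp) had a fold of 4.95 and 4.52 in mutant, and 5.28 and 4.45 in wild type. A second (37835342 to 37836277) had 3.44 and 3.62 in mutant, and 4.05 and 4.34 in wild type. The last of these (37841150 to 37841721) lay just inside the shared end, with 4.11 and 4.42 in mutant, and 5.15 and 3.74 in wild type. The groups overlapped at the first and the last of these and not at the second. With no exon annotation, none of the 3 can be placed in an exon or an intron.

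The 58.1 kb from the Pcdhg end to the end of the span, in which elements of the HS16 to HS20 group lie, held 12 regions, 6 called in all 4 libraries. All 6 lay inside Diaph1, a formin gene of the actin cytoskeleton that is expressed in blood cells, so its own regulatory DNA and that of the protocadherins cannot be told apart here. The strongest by fold (37852033 to 37852619), 10.5 kb after the Pcdhg end, had 8.04 and 8.07 in mutant, and 9.19 and 9.45 in wild type. Further on, 37883503 to 37883873 had 6.42 and 6.79 in mutant, and 7.87 and 7.28 in wild type. Its −log10 q was above that of the strongest by fold in each library. The region from 37879912 to 37880605 had 4.49 and 5.33 in mutant, and 6.62 and 6.30 in wild type. The other 3, centred 7.71, 35.8 and 45.3 kb after the Pcdhg end, had folds of 3.16 to 4.604. Both wild-type folds lay above both mutant folds at all 6 regions but the one at 35.8 kb, where the groups overlapped. The share of all regions with this order was not computed. Among gene starts called in all 4 libraries elsewhere it was 74.1%.

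**Figure D4:**
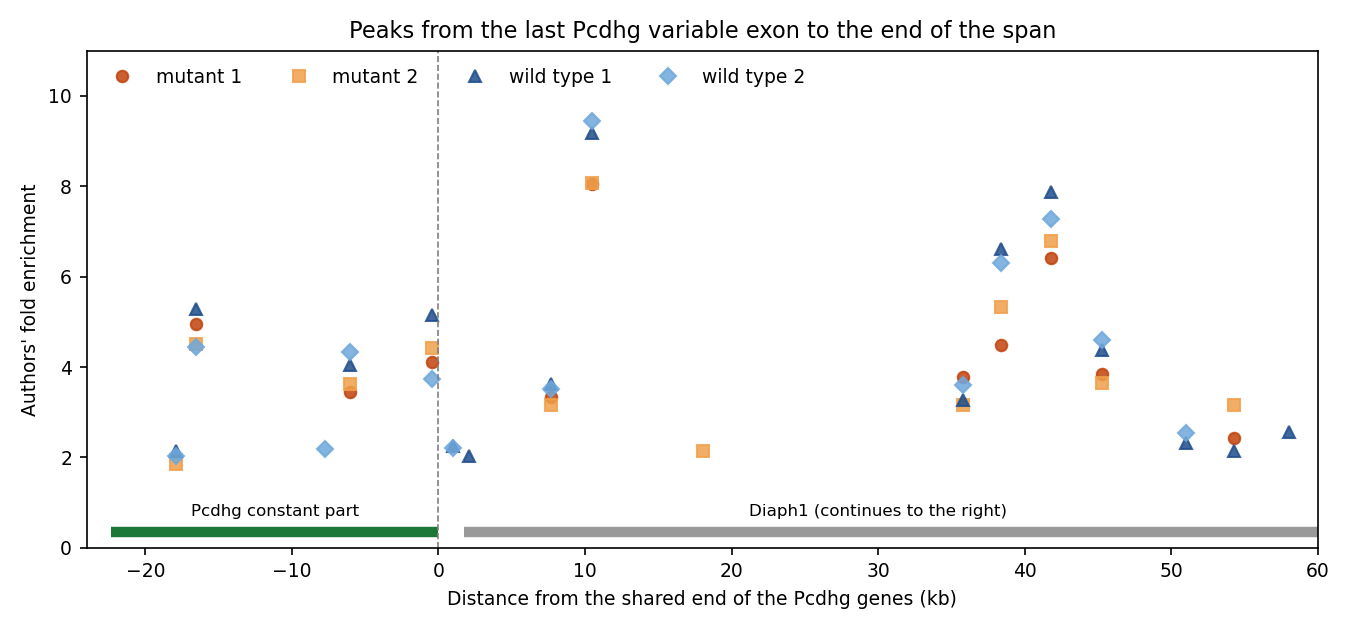
Authors' fold enrichment (y axis) of the 5 regions in the constant part of Pcdhg and the 12 regions beyond it, against distance from the shared Pcdhg end in kb (x axis), with 1 marker per library that called the region. The green bar is the constant part and the grey bar is Diaph1. The highest markers lie 10.5 kb after the end, with a second group between 35.8 and 45.3 kb.

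Between Pcdhb and Pcdhg, the start of the cluster was preceded by a region 5643 bp before Pcdhga1 (37655579 to 37656132), with a fold of 5.72 and 5.58 in mutant, and 7.50 and 5.49 in wild type. Between Pcdhga12 and Pcdhgc3, a region 5202 bp before Pcdhgc3 (37800788 to 37801208) had 5.25 and 6.14 in mutant, and 5.28 and 6.71 in wild type. Both were called in all 4 libraries and their groups overlapped. Smaller regions called in all 4 lay 2129 bp after the start of Pcdhga8, with 2.94 and 3.16 in mutant, and 3.81 and 3.43 in wild type, and 1090 bp after that of Pcdhga12, with 2.55 and 2.77 in mutant, and 2.72 and 2.29 in wild type. Taf7, a gene of the basal transcription machinery, stands between the 2 clusters. The region across its upper annotated end had 8.39 and 8.88 in mutant, and 10.7 and 9.95 in wild type. With no strand annotation, whether this end is the start of Taf7 was not told. The peak at Slc25a2, a mitochondrial carrier gene next to Taf7, had 2.73 and 2.67 in mutant, and its strongest peak had 3.44 and 3.27 in wild type.

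Peaks sat at different places relative to the starts. At the Pcdhgb genes every called peak was centred inside the gene, 29 to 179.5 bp after the start. Over all Pcdhg genes the median was 145 and 121 bp after the start in mutant, and 146 and 134 bp in wild type, and 15 of 16 and 16 of 17 peaks in mutant, and 16 of 18 and 16 of 18 in wild type, covered the start itself. Peaks at Pcdhb starts were mostly centred just before the start, with a median of -27.5 and -48.2 bp in mutant, and -43.5 and -58.5 bp in wild type.

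Pcdha peaks varied in place. Their median centre was 519.5 and 522 bp after the start in mutant, and 141 and 495 bp in wild type. At Pcdha8 the centre was 454 and 465 bp after the start in mutant, and 448 and 499 bp in wild type. At Pcdha7 it was 607 and 579 bp in mutant, and 528.5 and 540 bp in wild type, and at Pcdha4 it was 525 and 537 bp in wild type. None of these peaks covered the start. Others lay close to it or before it, with Pcdha9 at 5.5 bp in mutant 1, and at 0.5 and -75 bp in wild type. In wild type 1 the centre was at 53 bp for Pcdha3, -40.5 bp for Pcdha6 and -188 bp for Pcdhac1. For Pcdha6 it was further in elsewhere, at 585 bp in mutant 1 and 491 bp in wild type 2. Among called Pcdha starts in mutant, the strongest peak covered the start at 1 of 4 and 0 of 2. In wild type the strongest peak did so at 3 of 8 and 0 of 6. A second, weaker peak of wild type 2, with a fold of 2.66, covered the start of Pcdha8. In Pcdhg the peak of Pcdhga12 also lay after the start without covering it. Its centre was 465 and 382.5 bp after the start in mutant, and 430.5 and 400 bp in wild type.

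**Figure D5:**
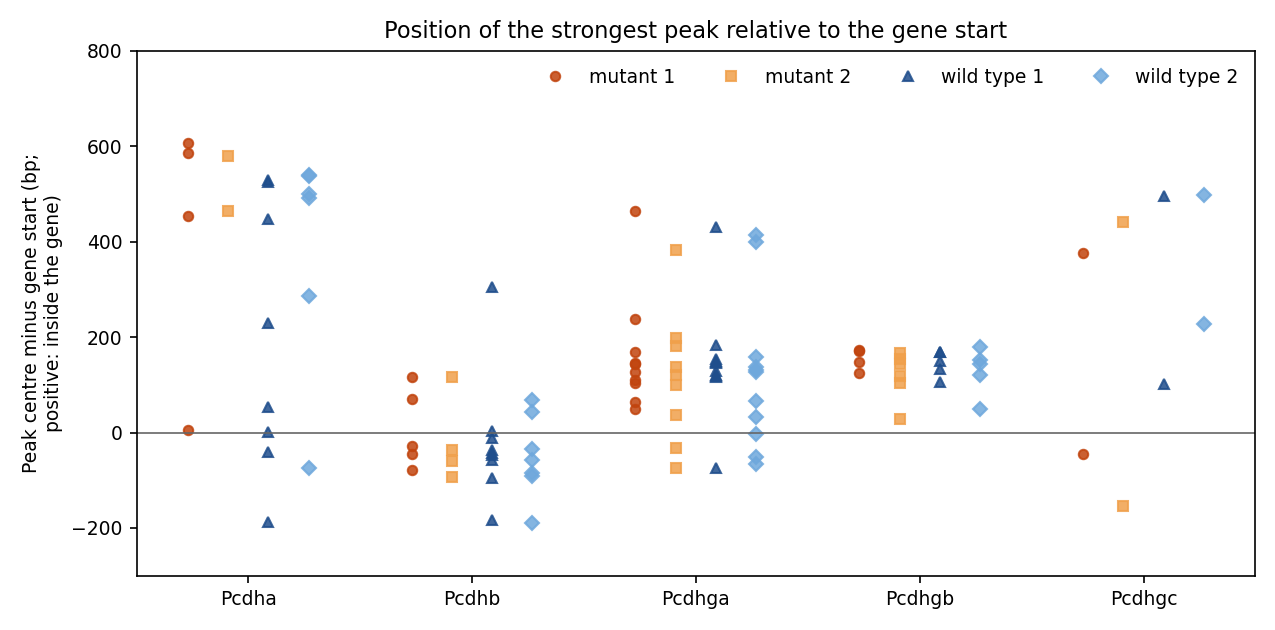
Distance of the centre of the strongest peak from the gene start in bp (y axis, positive inside the gene), by kind of gene, with 1 marker per called gene and library. Pcdhgb markers lie between 29 and 179.5 bp, Pcdhb markers mostly just below 0, and a group of Pcdha markers between 448 and 607 bp.

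The genotypes were then compared over the span. Mutant lists had 44 and 43 peaks there, and wild-type lists 67 and 61. The means were 43.5 ± 0.707 in mutant and 64 ± 4.24 in wild type (SD, n = 2 each, exact two-sided permutation p = 0.333, the smallest this design allows). The ratio of 0.680 lay close to the ratio of 0.737 for all peaks of the lists. Covered length was 22.7 ± 0.923 kb in mutant and 26.2 ± 3.096 kb in wild type (SD, n = 2 each, exact permutation p = 0.333). Starts with a peak numbered 25 and 23 in mutant, and 35 and 31 in wild type (exact permutation p = 0.333, n = 2 each). When each list was reduced to its strongest 119023 peaks, the mutant and wild-type means were 43 and 42.5 peaks, and 23.5 and 23.5 starts.

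No region of the span was called in both mutant libraries and in no wild-type library, of 37 regions called in both mutant libraries, against 1.75% genome-wide. In the mirror case, wild-type libraries shared 54 regions, and 10 of them (18.5%) had no mutant peak, against 15% genome-wide. These 10 were weak, with folds of 1.72 to 4.05. Their median width was 166 bp, near the 176 bp of regions called only in wild type genome-wide. It was 585.5 bp for the 36 regions of the span called in all 4. Among regions with no wild-type peak of fold 4 or more the share was 9 of 24 (37.5%), against 28.3% genome-wide. In 4 of the 10, a wild-type peak was shorter than the 87 bp of the shortest peak in mutant 2. Without wild-type replicate 2 the count called only in wild type was 21, and with peaks of −log10 q of 5 or more it was 1. The count called only in mutant was 2 without mutant replicate 1, and 1 without mutant replicate 2 or without wild-type replicate 1.

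Of these 10 regions, 7 lay in the Pcdha and Pcdhb clusters. They were those at the starts of Pcdha4, Pcdhac2, Pcdhb13 and Pcdhb15, and 3 regions in the Pcdhb cluster away from starts. The strongest of the 3 (37303117 to 37303252), 2318 bp after the start of Pcdhb3, had wild-type folds of 4.05 and 3.03. The region after the start of Pcdhb14 (37449806 to 37450099) had 3.01 and 2.59, and the one from 37330141 to 37330284 had 2.75 and 2.42. The 3 others were a 668 bp region 1792 bp after the start of Pcdhgc3, with 1.74 and 1.72, and 2 in the interval after Pcdhg. The 4 starts were 4 of 57 members, against 1.72% of starts elsewhere. They were 13.3% of the 30 member starts called in both wild-type libraries, against 2.52% of 11898 starts elsewhere. The wild-type folds of these 4 were 2.18 to 3.89, and the starts elsewhere were not matched for fold. No member start was called in both mutant libraries alone, against 0.08% elsewhere. No test was run on these shares, since the members were chosen with earlier results known.

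Where all 4 libraries called a start, both wild-type folds were above both mutant folds at 10 of 19, against 74.1% elsewhere. They were so at 5 of 5 Pcdha and Pcdhb starts and at 5 of 14 Pcdhg starts. Both mutant folds were above both wild-type folds at 2 of 19, Pcdhga8 and Pcdhgc3, against 5.94% elsewhere. A fold is relative to its own library's background, so these orders are given as a description.

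Related genes were read at either annotated end, where 67.1% of coding genes had a peak in all 4 libraries. Of 12 protocadherins outside the clusters 6 had one in all 4 libraries, namely Pcdh1, Pcdh7, Pcdh8, Pcdh10, Pcdh17 and Pcdh19, and Pcdh9, Pcdh11x, Pcdh15 and Pcdh20 had none in any. Of 14 classical and related cadherins 7 were called in all 4. Genes for the architecture and silencing of the clusters were called at 19 of 23, including Ctcf, the cohesin subunits Smc1a and Smc3, the repressor Smchd1 and the methyltransferase gene Setdb1. The 4 that were not were the cohesin subunit genes Rad21 and Stag1, the cohesin loader gene Nipbl and the DNA methyltransferase gene Dnmt3a, which was called in no library. Peaks further than 1 kb from both annotated ends were not counted, so an uncalled gene may still hold peaks. Of 18 genes for binding partners and signalling, 17 were called in all 4 libraries, Ptk2, Ptk2b and Fyn among them.

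Tandem gene families differed widely by the same measure. Pcdhb, the cluster whose genes share no end, had 3 of 22 (13.6%) called in all 4 libraries. Odorant receptor genes (Olfr) had 40 of 1110 (3.60%), and vomeronasal receptor genes 3 of 231 (Vmn1r) and 2 of 124 (Vmn2r). Keratin-associated protein genes (Krtap) had 2 of 56 (3.57%). Hox genes had 34 of 39 (87.2%) and the lymphocyte Gimap genes 7 of 8. These shares are given beside each other with no test.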

How the data were processed

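MACS2 2.1.1, SAMtools 1.7, Bowtie2 2.3.3.1 and cutadapt 1.16 are named, with mm10 (GRCm38), per the submitters' processing notes. Settings, read filters and transposase shifts are not given in the sources consulted. In the deposited peak lists, 1 per library, each peak has a score (10 times −log10 q, truncated), a fold, which is a ratio over local background, and −log10 p and −log10 q values by the authors' caller. They served to rank, describe and filter the peaks of each list, and folds of different lists are set side by side as a description, with no test. The values allow no count model and no interval.

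Chromosomes 1 to 19, X and Y were used. Regions are the merged union of the 4 lists, and a library had a region on 1 bp of overlap. Gene ends came from a RefSeq table of GRCm38.p6 without strand or exons, and starts on other chromosomes from a RefSeq promoter table (the most upstream start of each gene). Features were assigned in the order of start, constant part, intervals after the clusters, other gene ends and rest. Mutant and wild-type values were compared by exact two-sided permutation. Named were regions called in all 4 libraries, up to 10 per class, regions called in 1 genotype, and members with a peak at their start. The rule allowed 30 members, and all 38 with a peak are named so that none is left out. The members and lists were chosen with earlier results of these data known. On 60000 simulated peaks, 200 of 200 regions removed from mutant and 150 of 150 removed from wild-type lists were recovered. The simulated lists were copies of 1 list with slightly shifted peak ends. This checked the code only, and not how missed calls or unequal lists affect the counts. Python 3.11.15, numpy 2.4.6, pandas 2.3.3 and matplotlib 3.10.9 were used.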

Additional observations from a re-analysis of the deposited data

How the results depend on the processing

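The difference in peaks per library (mutant minus wild type) was -20.5. It was 0.5 with equal numbers of peaks, where the covered length also turned, to 0.654 kb from -3.47 kb, and the difference in starts with a peak was 0 in place of -9. Leaving out 1 library gave -23.5 to -17.5 peaks, -5.66 to -1.28 kb and -11 to -7 starts. With the replicate block, over pairs of libraries that share a number, the differences of -20.5 peaks, -3.47 kb and -9 starts had an exact p of 0.5, the smallest that 2 pairs allow. The numbers share no known batch, and replicate differences in fold rank hardly correlated between genotypes (r = -0.0539 across 102231 regions, which are not independent).

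Regions called only in wild type numbered 10, against 1 when only −log10 q from 5 up counted, 3 when only folds from 4 up counted, 3 with equal numbers of peaks, 6 with a common minimum length of 87 bp and joining gap of 348 bp, and 13 to 21 without 1 library. Regions called only in mutant numbered 0, against 2 with equal numbers of peaks and 0 to 2 without 1 library. Pcdha and Pcdhb start regions called in every library numbered 5, against 1 when only folds from 4 up counted, 2 when only −log10 q from 5 up counted, 2 with 50% cover and 5 to 8 without 1 library. At fold 4 or more, the Pcdhg start regions called in every library numbered 9, against 14, and those of the Pcdhg constant part and the interval after it 4, against 9. The stricter settings hold fewer peaks by construction. Depth is unknown, which limits every statement on a missing peak.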
